A study of Homo sapiens with 16 samples.

Results

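The SLC25 genes encode the mitochondrial carrier family. The genes described here are all protein-coding rows of the deposited table whose symbol is SLC25A followed by a number, which gave 48 genes of the 58051 gene identifiers in the table. Of these, 41 had a mean of at least 10 normalised counts over the 16 libraries and were tested among 13765 genes that met the same minimum. The other 7 were SLC25A18, SLC25A21, SLC25A27, SLC25A31, SLC25A47, SLC25A48 and SLC25A52. SLC25A21 (oxoadipate carrier), SLC25A31 (the testis ADP/ATP carrier), SLC25A47 and SLC25A48 had 0 reads in all 16 libraries. An observed 0 does not exclude an expected count of up to 3 reads per library. The other 3 of the 7 genes had at most 2 reads in any library.

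Carriers of this family are small proteins that sit, with few exceptions, in the mitochondrial inner membrane and exchange or import the metabolites that cannot cross it unaided. They move ADP and ATP, phosphate, citrate and other carboxylates, amino acids, nucleotides, vitamins and cofactors, and iron between the cytosol and the matrix. In proliferating B cells they link cytosolic biosynthesis with oxidative phosphorylation, heme and iron-sulphur cluster formation, and one-carbon metabolism.

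RNA was measured by sequencing in P493-6, an immortalised human B cell line with a conditional MYC gene. IMP1088 inhibits the N-myristoyltransferases (NMT), which attach a myristoyl group to proteins. High-MYC cells were kept in plain DMEM, and medium-MYC cells received beta-estradiol at 1 uM and doxycycline at 0.1 ug/mL from 24 hours before treatment. Cells at each MYC setting then received 100 nM IMP1088 or DMSO for 24 hours, and each of the 4 groups had 4 libraries. The medium setting therefore differed from the high setting by 2 added agents as well as by MYC, and their contributions cannot be told apart. All groups come from 1 cell line with a MYC transgene. The labels do not say whether libraries came from separate cultures, so the p-values measure only the spread between these libraries, which may be technical.

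The libraries held 8755296 to 13858534 reads. MYC itself was at 29693 to 34375.5 normalised counts at high MYC in DMSO and at 46843 to 48049 with IMP1088. At medium MYC it was at 904 to 1022 in DMSO and 1327.5 to 1444 with IMP1088. MYC RNA was thus higher with IMP1088 at both settings, without overlap of the libraries. All 5 B cell markers given (MS4A1, CD79A, CD79B, PAX5, CD22) were present, with a summed level of 18874 to 23454 at high MYC and 33532 to 38720 at medium MYC. The largest part was MS4A1, at 11249 to 11899 at high and 21975 to 23086 at medium MYC in DMSO. PAX5 and CD22 were also higher at medium MYC in DMSO. The libraries overlapped for CD79A (2948 to 3266 and 2690 to 3138) and CD79B (1530 to 1634 and 1375 to 1573). KRT18 and DCN were at 0 in every library, and CD3D and KRT8 had at most 3 reads. The summed level of the 3 fibroblast markers was 4.44 to 19.4 at high MYC and 156 to 221 at medium MYC, nearly all of it COL1A1, and that of the 3 epithelial markers was 55.7 to 86.3 at high MYC and 9.39 to 23.8 at medium MYC, nearly all of it EPCAM. Some marker sums differed between IMP1088 and DMSO without overlap of the libraries. The B cell sum was 23284 to 23454 in DMSO and 18874 to 19840 with IMP1088 at high MYC, and 37963 to 38720 and 33532 to 34737 at medium MYC. The sum of 3 T cell markers was 62.9 to 71.5 in DMSO and 44.1 to 56.6 with IMP1088 at high MYC, and 66.8 to 93.6 and 40.8 to 52.2 at medium MYC. At medium MYC the sum of 3 monocyte markers was 51.7 to 60.5 in DMSO and 78.6 to 83.4 with IMP1088, and the fibroblast sum was 156 to 176 and 193 to 221, while at high MYC both overlapped. The part of these marker levels in the carrier results was not tested.

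Levels between 40 of the 41 tested carriers were compared as normalised counts per kilobase of annotated exon. SLC25A6 (ENSG00000169100, chrX:1386152-1392724) was highest, with a mean of 2607 per kilobase over the 16 libraries, followed by SLC25A5 (ENSG00000005022, chrX:119468400-119471319) with 1827. Both are ADP/ATP carriers, which export the ATP made by oxidative phosphorylation in exchange for cytosolic ADP. SLC25A3 (ENSG00000075415, chr12:98593591-98606379), which imports phosphate and copper, came next at 447 per kilobase. The lowest tested carrier was SLC25A34 at 3.68 per kilobase, 709-fold below SLC25A6. Of the 39 pairs of neighbours in this order, only SLC25A5 and SLC25A3 had library ranges that did not overlap. These ranges pool the 4 groups, so an overlap can come from differences between groups. Within every group the mean of SLC25A6 was above that of SLC25A5, at 2062 and 1732 per kilobase at medium MYC in DMSO. In the same way SLC25A3 was above SLC25A23, the next in order, at 413 and 367 there. The order depends on the divisor, which joins all annotated exons of a gene and can exceed the transcript in use. For SLC25A3 it was 8.896 kilobases and for SLC25A5 1.5. Before that division SLC25A3 had more counts than SLC25A5, with means of 3977 and 2740.

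**Figure D1:**
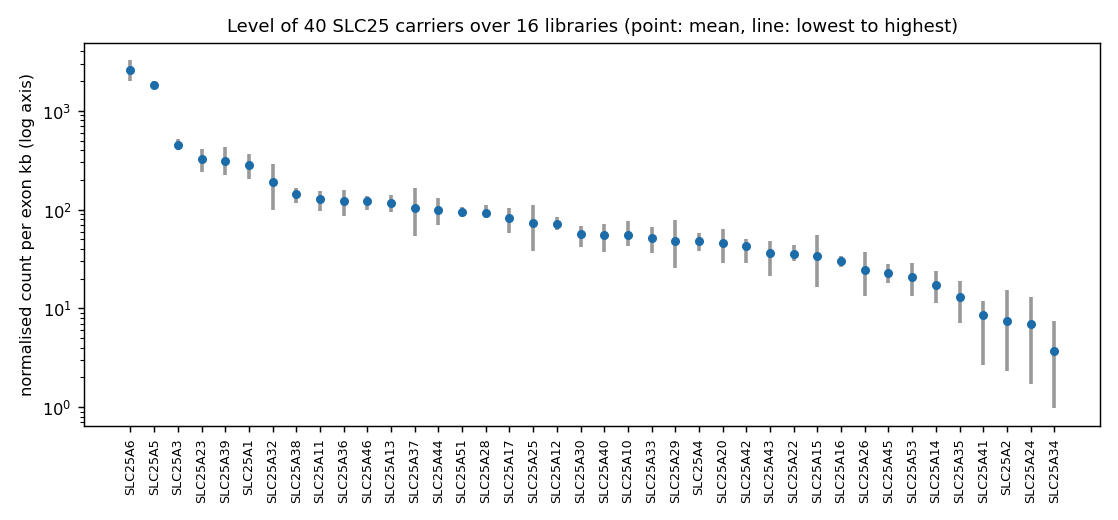
Normalised count per kilobase of annotated exon (log axis) for 40 of the 41 tested carriers, ordered by their mean over 16 libraries; points are means and lines run from the lowest to the highest library. On this measure, which depends on annotated exon length, SLC25A6 and SLC25A5 stand above the other carriers. From SLC25A3 downward the ranges of neighbours, which pool the 4 groups, overlap.

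As a share of all normalised counts, the 48 genes together made up 0.277% ± 0.00512 (SD, n = 4) at high MYC in DMSO and 0.283% ± 0.00281 with IMP1088. At medium MYC the shares were 0.236% ± 0.0018 in DMSO and 0.234% ± 0.00361 with IMP1088. SLC25A6, SLC25A5 and SLC25A3 supplied 46.0% ± 0.194 of that sum at high MYC in DMSO, 49.0% ± 0.679 at high MYC with IMP1088, 44.0% ± 0.454 at medium MYC in DMSO and 47.9% ± 0.359 at medium MYC with IMP1088. The sum is given as a description, since it was not tested.

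The comparison of medium with high MYC asks how the carriers differ between the MYC settings. In DMSO, 11 carriers were higher and 18 were lower at medium MYC among the 41 tested, by limma with Benjamini-Hochberg adjustment at an adjusted p under 0.05. These 29 calls are 70.7% of the carriers, beside 76.2% of all genes tested, so the carriers were not called more often than other genes. Of all genes, 38.9% were higher and 37.3% were lower. The median log2 change was -0.07 over the carriers and 0.02 over all genes. Changes of at least 2-fold were called for 9 carriers, beside 24% of all genes. Fold changes here and below are on the log2(value + 1) scale, which understates the change of genes with few counts.

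With IMP1088 present in both groups, 13 carriers were higher and 19 were lower at medium MYC, which is 78% of the 41 beside 77.5% of all genes. Of all genes, 39.7% were higher and 37.8% were lower, and 8 carriers changed at least 2-fold beside 25.2% of all genes. The median log2 change was -0.15 over the carriers and 0.02 over all genes. The DMSO comparison and the IMP1088 comparison share no library. In both, 27 carriers were called, and all 27 had the same direction. That is 93.1% of the DMSO calls and 84.4% of the IMP1088 calls, beside 91.1% and 89.6% for all genes. The 4 libraries of each group did not overlap for 28 carriers in DMSO (69.2% of all genes) and for 32 with IMP1088 (72.6% of all genes). RNA was measured in bulk, so a change in the cells present and a change in RNA per cell cannot be told apart.

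**Figure D2:**
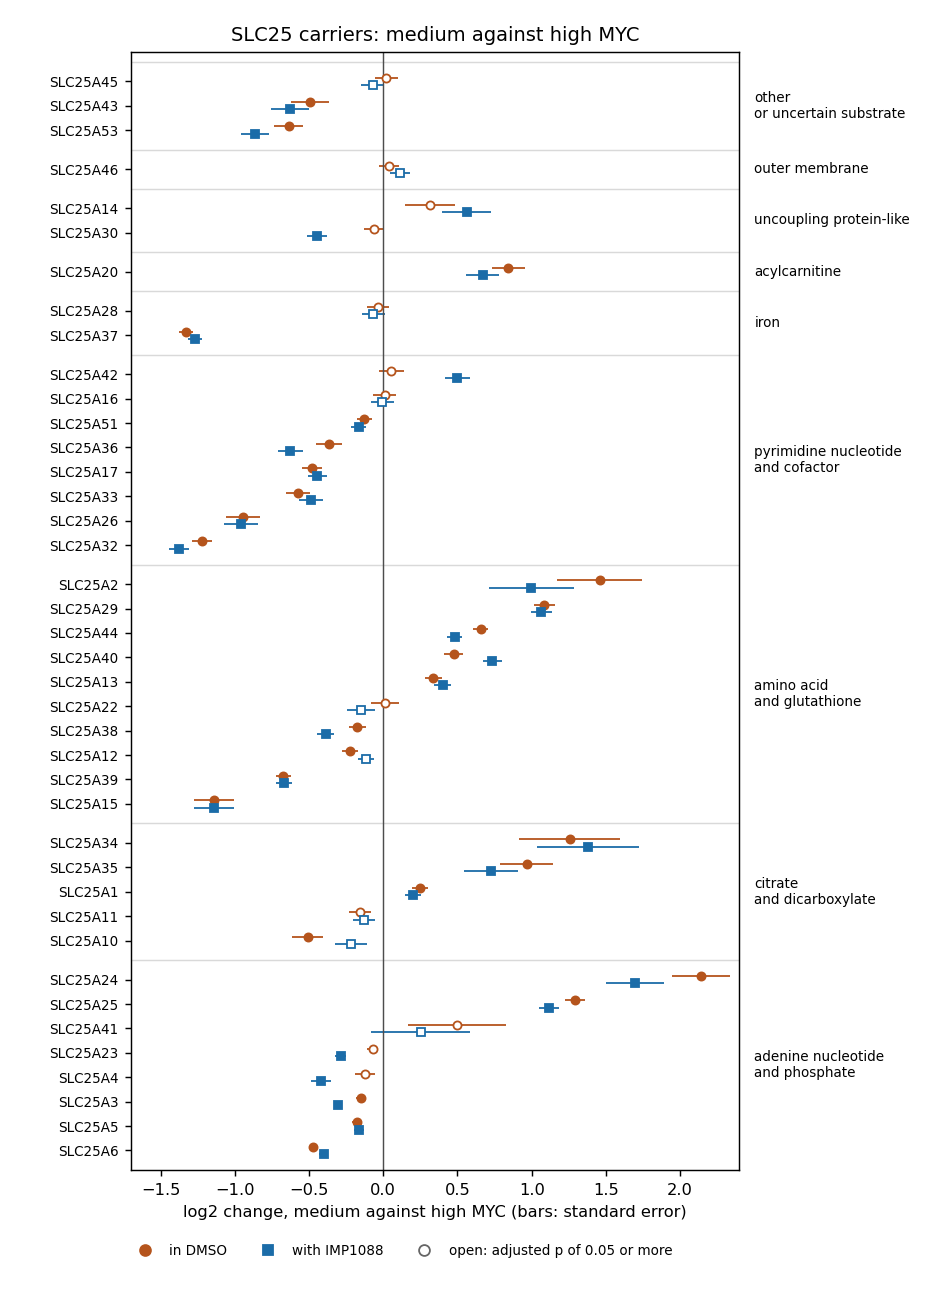
Log2 change at medium against high MYC for 40 of the 41 tested carriers, grouped by role, in DMSO (circles) and with IMP1088 (squares); bars are standard errors and open symbols did not pass the adjusted p of 0.05. The pyrimidine nucleotide and cofactor carriers lie mostly to the left of 0, and the amino acid and glutathione carriers lie on both sides.

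The carriers of pyrimidine nucleotides and cofactors were mostly lower at medium MYC. Of 9 tested, 7 fell in DMSO, where 37.3% of all genes were lower, and none rose, with a median log2 change of -0.48. With IMP1088, 7 fell, where 37.8% of all genes were lower, and 1, SLC25A42, rose. No test was made of this group against other genes. Those that fell in both comparisons included SLC25A32, SLC25A26, SLC25A33, SLC25A17, SLC25A36 and SLC25A51.

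SLC25A32 (ENSG00000164933, chr8:103398635-103415189) brings folate and FAD into the matrix, where one-carbon units are made. Its normalised counts were 801, 887, 1007 and 996 at high MYC in DMSO and 409.9, 412, 359.7 and 396 at medium MYC in DMSO. With IMP1088 they were 1065, 1048, 1027 and 1032 at high MYC and 359, 421, 408 and 418 at medium MYC. All 8 medium-MYC libraries lay below all 8 high-MYC libraries. The level was 2.33-fold lower in DMSO (log2 change -1.22 ± 0.07, SE; adjusted p = 2.14e-13) and 2.6-fold lower with IMP1088 (adjusted p = 2.38e-14). Exons of SLC25A32 overlap those of DCAF13 on the opposite strand and of AC012213.5 on the same strand, and whether counting used strand is not given in the sources used here. DCAF13 changed by -0.94 on the log2 scale in DMSO (adjusted p = 3.94e-14).

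SLC25A26, the carrier of S-adenosylmethionine, the methyl donor, had group means of 174 ± 6.25 (SD, n = 4) at high MYC and 90.5 ± 13.4 at medium MYC in DMSO, a log2 change of -0.94. SLC25A26 overlaps exons of LRIG1 on the opposite strand, which moved the other way (log2 2.15). SLC25A33 and SLC25A36, which carry pyrimidine nucleotides for mitochondrial DNA and RNA, changed by -0.58 and -0.37 in DMSO and by -0.49 and -0.63 with IMP1088. SLC25A17, a carrier of coenzyme A and other cofactors in peroxisomes rather than mitochondria, changed by -0.48 and -0.44. The smallest of the 7 falls was that of SLC25A51, the NAD carrier, at -0.13 in DMSO (adjusted p = 0.0301), where it was lost by DESeq2, by quantile normalisation and without some single libraries. SLC25A16 did not pass in either comparison (0.01 and -0.01).

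CACGTG is the core of the E-box, the DNA element that MYC with MAX binds, so the promoter windows of the carriers were searched for these letters. The windows are those of a RefSeq table (GRCh38.p14) and run from 250 bases before each listed start to 50 after it. CACGTG is its own reverse complement, so 1 search covers both strands. The table matched 40 of the 48 genes, and a gene counted as holding the letters if any of its listed starts did. The 8 genes not matched were not searched, and they include SLC25A32 and SLC25A37. Of all 27305 symbols in the table, 8.77% held it. Among tested genes with a window it stood in 8 of 33 carriers (24.2%) and in 12.9% of all genes, and no test was made of that difference. Of those 8 carriers, 5 were lower at medium MYC in DMSO, 1 was higher, and SLC25A22 and SLC25A46 did not pass. Among the 25 carriers without it, 10 were lower and 8 were higher. Of all genes with the letters 48.1% were lower, and of those without them 36.3% were.

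The windows of the 6 carriers that held CACGTG and passed the test are shown for the 160 bases just before the start, 5′ to 3′ along the gene, with CACGTG in capitals. SLC25A26, SLC25A33, SLC25A36, SLC25A38 and SLC25A51 were lower at medium MYC, and SLC25A13 was higher. The SLC25A26 window belongs to 1 of 3 listed starts, and it holds 2 copies, at 50 and 24 bases before that start. The regions are chr3:66220841-66221000, plus strand for SLC25A26, chr1:9539305-9539464, plus strand for SLC25A33, chr3:140941676-140941835, plus strand for SLC25A36, chr3:39383210-39383369, plus strand for SLC25A38, chr9:37904128-37904287, minus strand for SLC25A51 and chr7:96322099-96322258, minus strand for SLC25A13.
SLC25A26: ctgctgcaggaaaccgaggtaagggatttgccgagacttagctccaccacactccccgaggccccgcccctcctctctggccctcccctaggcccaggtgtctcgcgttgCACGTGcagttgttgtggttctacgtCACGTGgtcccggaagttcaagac
SLC25A33: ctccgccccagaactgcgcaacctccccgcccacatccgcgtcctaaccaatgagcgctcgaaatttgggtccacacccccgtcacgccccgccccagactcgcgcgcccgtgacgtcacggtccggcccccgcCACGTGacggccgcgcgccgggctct
SLC25A36: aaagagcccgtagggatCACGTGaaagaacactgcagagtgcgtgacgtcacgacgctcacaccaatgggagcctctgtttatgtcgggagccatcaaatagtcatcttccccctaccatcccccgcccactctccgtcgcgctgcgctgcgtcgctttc
SLC25A38: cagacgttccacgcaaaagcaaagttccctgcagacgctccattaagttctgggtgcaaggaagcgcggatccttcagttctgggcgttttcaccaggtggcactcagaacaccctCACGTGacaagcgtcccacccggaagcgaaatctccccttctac
SLC25A51: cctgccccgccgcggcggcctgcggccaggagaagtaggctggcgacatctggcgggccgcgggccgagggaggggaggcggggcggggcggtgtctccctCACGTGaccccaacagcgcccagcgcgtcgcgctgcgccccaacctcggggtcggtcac
SLC25A13: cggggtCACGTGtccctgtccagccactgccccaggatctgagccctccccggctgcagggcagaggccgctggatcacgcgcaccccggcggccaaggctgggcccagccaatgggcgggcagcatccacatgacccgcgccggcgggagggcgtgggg
The copies begin 26 bases before the start in SLC25A33, 44 in SLC25A38, 59 in SLC25A51, 143 in SLC25A36 and 154 in SLC25A13. Matches are a description of the letters and not of binding.

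Of the iron carriers, SLC25A37 fell and SLC25A28 did not pass. SLC25A37 (ENSG00000147454, chr8:23528805-23575463), mitoferrin-1, supplies iron for heme and iron-sulphur clusters. Its counts were 1279.6, 1339, 1292 and 1279 at high MYC and 489, 509, 555 and 512 at medium MYC in DMSO. With IMP1088 they were 1157, 1170.2, 1121 and 1069.6 and 445, 445, 489 and 494. Every medium-MYC library lay below every high-MYC library, and the fall of 2.51-fold in DMSO (log2 -1.33 ± 0.05, adjusted p = 1.02e-16) was the largest among the carriers called lower there. SLC25A28, mitoferrin-2, read 156 ± 8.1 (SD, n = 4) and 152 ± 7.94 in DMSO (log2 -0.04, adjusted p = 0.682).

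The adenine nucleotide and phosphate carriers went both ways. In DMSO 2 of 8 rose and 3 fell, beside 38.9% and 37.3% of all genes. With IMP1088 2 rose and 5 fell, beside 39.7% and 37.8%. The 2 that rose in both, SLC25A25 and SLC25A24, are calcium-sensitive carriers that exchange ATP-magnesium for phosphate and so set the matrix adenine nucleotide pool. The 3 that fell in both were the ADP/ATP carriers SLC25A6 and SLC25A5 and the phosphate carrier SLC25A3.

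SLC25A25 (ENSG00000148339, chr9:128068201-128109245) read 186, 239, 204 and 236 at high MYC and 512, 531, 546 and 524 at medium MYC in DMSO. With IMP1088 the values were 217, 234, 205 and 214 and 478, 469.9, 473 and 469.9. The high-MYC and medium-MYC libraries did not overlap, and the rise was 2.45-fold in DMSO (log2 1.29 ± 0.07, adjusted p = 1.32e-13) and 2.17-fold with IMP1088. Exons of NAIF1 and SLC25A25-AS1 overlap it on the opposite strand, and in DMSO they changed by 0.83 and -0.89 on the log2 scale. SLC25A24 had the largest log2 rise of the family, from 18.5 ± 2.12 (SD, n = 4) to 84.4 ± 2.42 in DMSO, 4.41-fold (adjusted p = 1.74e-09), at a low level. Its mean over all libraries of 47.2 is under the minimum of 50 set for giving every library, and it is singled out after its values were seen. The related SLC25A23 and SLC25A41 did not pass in DMSO (-0.07 and 0.50). SLC25A23 passed there with edgeR (-0.08, adjusted p = 0.0422), with the GC correction (-0.12, adjusted p = 0.000186), with that correction and the replicate block, and without replicate 3 of either group. It was lower at medium MYC with IMP1088 in both groups (-0.29, adjusted p = 6.18e-07).

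SLC25A6 read 6343, 6244, 6015 and 6127 at high MYC and 4310.0, 4337, 4781 and 4425 at medium MYC in DMSO. With IMP1088 it read 6645, 6684, 7065 and 6739 and 5056, 5196, 5238 and 5049. The 4 groups did not overlap one another, and the medium-MYC level was 1.39-fold lower in DMSO (log2 -0.47 ± 0.03, adjusted p = 1.1e-11). SLC25A5 fell less, by 1.13-fold (2939 ± 76.7 to 2599 ± 92.1, SD, n = 4; adjusted p = 2.48e-05). Within the summed counts of the 3 expressed ADP/ATP carriers, SLC25A6 took 66.0% ± 1.12 at high MYC and 61.2% ± 0.963 at medium MYC in DMSO, and SLC25A5 took 31.4% ± 0.995 and 35.7% ± 0.948. With IMP1088, SLC25A6 took 68.5% ± 0.365 and 65.1% ± 0.482. SLC25A4, the carrier of heart and muscle, supplied 2.44% to 3.15% in the 4 groups. Reads of SLC25A5 and SLC25A6 can be split with near-identical copies, since 9 and 6 pseudogenes carry their names, so these levels are uncertain. The same limit applies to other carriers with named pseudogenes, among them SLC25A1 and SLC25A15 with 5 each and SLC25A51 with 3.

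Of the 5 tested carriers placed in the citrate and dicarboxylate list, 3 rose in both comparisons: SLC25A1, SLC25A35 and SLC25A34. Of all genes, 38.9% were higher in DMSO and 39.7% with IMP1088, and the list was not tested against them. SLC25A1 exports citrate for fatty acid and sterol synthesis, and its counts are given with the IMP1088 comparisons. It was 1.18-fold higher in DMSO (adjusted p = 0.000309) and 1.15-fold higher with IMP1088. SLC25A35 (ENSG00000125434, chr17:8287763-8295343), whose substrate is uncertain, read 45.2, 29.2, 32 and 30.2 at high MYC and 73, 61.6, 65.6 and 66.5 at medium MYC in DMSO, and 28, 49.9, 31.4 and 49.9 and 67.6, 72.5, 59.5 and 58.5 with IMP1088. In each comparison its lowest medium-MYC library was above its highest high-MYC library, with log2 changes of 0.97 (adjusted p = 6.01e-05) and 0.72 (adjusted p = 0.00111). Its exons overlap RANGRF on the opposite strand, which changed by -0.56 in DMSO. The other, SLC25A34, had means of 7.26 ± 3.43 and 17.8 ± 4.37 (SD, n = 4), and its calls were lost with quantile normalisation. SLC25A10, the dicarboxylate carrier, fell in DMSO (-0.51, adjusted p = 0.000199), and SLC25A11, the 2-oxoglutarate/malate carrier, did not pass (-0.16) but did so under 6 other settings, edgeR and the GC correction among them.

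The amino acid and glutathione carriers went both ways, with 5 of 10 higher and 4 lower in DMSO and 5 higher and 3 lower with IMP1088. Of all genes, 38.9% were higher and 37.3% lower in DMSO, and 39.7% and 37.8% with IMP1088. The group was not tested against other genes. SLC25A29 (ENSG00000197119, chr14:100291111-100306547), a carrier of basic amino acids, read 282, 254, 229.6 and 265 at high MYC and 553, 488, 592 and 556 at medium MYC in DMSO. With IMP1088 it read 196, 225, 204 and 190.2 and 439, 452, 416 and 402. All medium-MYC libraries stood above all high-MYC libraries, by 2.12-fold in DMSO (log2 1.09 ± 0.07, adjusted p = 7.7e-12) and 2.09-fold with IMP1088 (adjusted p = 9.99e-12). The ornithine carrier SLC25A15, which serves the urea cycle, moved the opposite way, from 94.5 ± 8.62 (SD, n = 4) to 42.7 ± 7.44 in DMSO (2.21-fold lower, adjusted p = 9.95e-08). The second ornithine carrier, SLC25A2, rose from 5.23 ± 1.42 to 15.9 ± 3.13 in DMSO, at few reads, and its call with IMP1088 was lost with quantile normalisation.

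The glutathione carriers SLC25A39 and SLC25A40, which are close paralogs, also moved in opposite directions. SLC25A39 had means of 1357 ± 102 (SD, n = 4) at high and 849.8 ± 51 at medium MYC in DMSO (log2 -0.67, adjusted p = 8.81e-11). SLC25A40 (ENSG00000075303, chr7:87833568-87876357) read 243, 254, 270.4 and 240.3 at high MYC and 365, 356, 331 and 349 at medium MYC in DMSO, and 211, 203, 198 and 189 and 313, 316, 366 and 343 with IMP1088. Its medium-MYC libraries were above its high-MYC libraries in both comparisons, with log2 changes of 0.47 (adjusted p = 6.13e-07) and 0.74 (adjusted p = 5.94e-10). DBF4, whose exons overlap SLC25A40 on the opposite strand, changed by -0.45 in DMSO.

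The aspartate/glutamate carriers of the malate-aspartate shuttle divided as well: SLC25A13 was higher (0.34 in DMSO, 0.40 with IMP1088), while SLC25A12 was lower in DMSO (-0.22, adjusted p = 0.000906) and did not pass with IMP1088 (adjusted p = 0.0542). METAP1D, whose exons overlap SLC25A12 on the opposite strand, changed by -1.42 in DMSO. SLC25A44 (ENSG00000160785, chr1:156193932-156212796), the carrier of branched-chain amino acids, had counts of 509.9, 531, 553 and 521 at high MYC and 858, 807, 869.9 and 799 at medium MYC in DMSO. With IMP1088 it read 609.7, 693, 638 and 596 and 839, 859, 961 and 883. Medium-MYC libraries were above high-MYC libraries without overlap, by 1.58-fold in DMSO (adjusted p = 1.45e-10). SLC25A38, which imports glycine for heme synthesis, was lower (-0.18 and -0.39), and the glutamate carrier SLC25A22 did not pass (0.01 and -0.15).

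**Figure D3:**
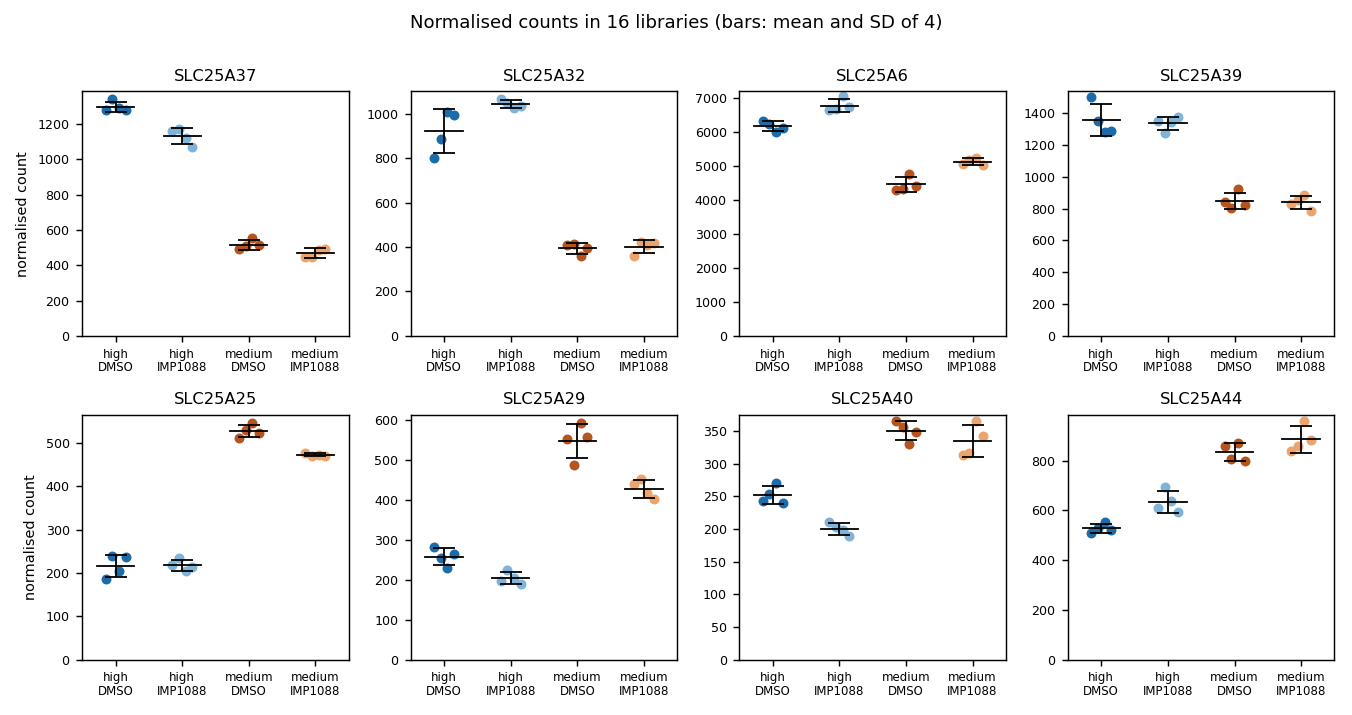
Normalised counts of 8 carriers in each of the 16 libraries, by MYC setting and treatment; each point is a library, and the bars give the mean and SD of 4. SLC25A37, SLC25A32, SLC25A6 and SLC25A39 are lower in every medium-MYC library, and SLC25A25, SLC25A29, SLC25A40 and SLC25A44 are higher.

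Carriers of the other roles included 1 that rose and 2 that fell in both comparisons. SLC25A20, which brings acylcarnitines to beta-oxidation, rose from 68.5 ± 8.14 (SD, n = 4) to 123 ± 5.63 in DMSO (1.79-fold, adjusted p = 5.41e-07) and by 1.59-fold with IMP1088. SLC25A53 and SLC25A43, whose substrates are not established, fell in both comparisons, by log2 -0.64 and -0.50 in DMSO. The uncoupling protein-like SLC25A14 and SLC25A30 did not pass in DMSO and were called with IMP1088, at 0.56 and -0.45. SLC25A46, an outer membrane member linked to mitochondrial fission and lipid traffic, did not pass in either comparison (0.04 and 0.11) but passed in both with the GC correction, and SLC25A45 did not pass in either.

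The comparison of IMP1088 with DMSO asks what NMT inhibition does at a given MYC setting. The MYC RNA level was not constant within a setting, since it was higher with IMP1088. Its part in these changes was not tested. At high MYC, 4 carriers were higher and 8 were lower with IMP1088, 12 of 41 beside 26.8% of all genes called. Of all genes 10.5% were higher and 16.3% were lower. At medium MYC, 1 carrier was higher and 9 were lower, 10 of 41 beside 26.3% of all genes, of which 11.7% were higher and 14.6% were lower. The median log2 changes were -0.02 and -0.13 over the carriers and -0.02 and -0.01 over all genes. No carrier was called with a change of at least 2-fold, beside 1.56% of all genes at high MYC and 0.886% at medium MYC. Groups did not overlap for 18 carriers at high MYC (26.7% of all genes) and for 12 at medium MYC (27.9% of all genes). With quantile normalisation the calls over all genes at high MYC were 1727 higher and 1770 lower in place of 1442 and 2247, and those over the carriers were 5 higher and 8 lower.

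The IMP1088 comparisons at the 2 MYC settings share no library. In both, 7 carriers passed, which is 58.3% of the calls at high MYC and 70% of those at medium MYC, beside 50.7% and 51.7% for all genes. All 7 had the same direction, as did 96.6% of all genes that passed in both. SLC25A6 rose, and SLC25A1, SLC25A11, SLC25A23, SLC25A29, SLC25A37 and SLC25A45 fell. At high MYC only, 5 passed (SLC25A3, SLC25A32 and SLC25A44 higher, SLC25A40 and SLC25A42 lower), at medium MYC only, 3 passed (SLC25A4, SLC25A30 and SLC25A38, all lower), and 26 passed in neither. A call at only 1 setting does not show that the responses differ, which was tested separately.

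**Figure D4:**
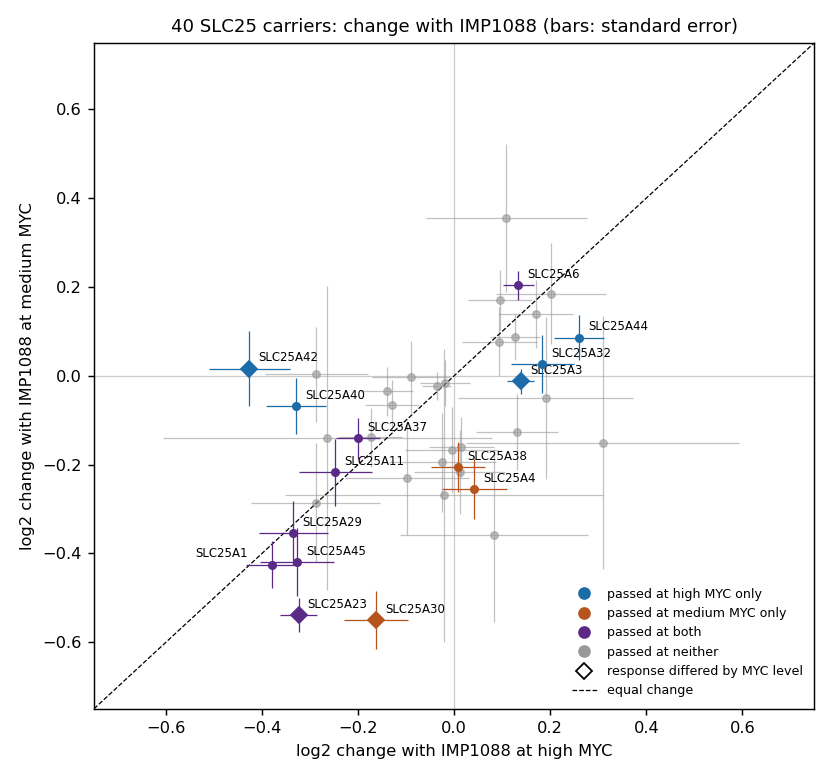
Log2 change with IMP1088 at high MYC (horizontal axis) and at medium MYC (vertical axis) for 40 of the 41 tested carriers; bars are standard errors, colours give where a carrier passed the test and diamonds mark a tested difference in response. SLC25A1, SLC25A23, SLC25A29 and SLC25A45 lie low on both axes, and SLC25A6 lies above 0 on both.

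SLC25A1 (ENSG00000100075, chr22:19175575-19178830), the citrate carrier, fell at both settings. At high MYC it read 630.4, 612, 600.4 and 621 in DMSO and 424, 495, 507 and 471 with IMP1088. At medium MYC it read 721, 681, 766 and 756 in DMSO and 573, 519, 533 and 551 with IMP1088. At each setting all IMP1088 libraries were below all DMSO libraries, by 1.3-fold at high MYC (log2 -0.38 ± 0.05, adjusted p = 1.45e-05) and 1.34-fold at medium MYC (adjusted p = 2.99e-06). ACLY, the enzyme that cleaves the exported citrate into acetyl-CoA, was also lower with IMP1088, by log2 -0.43 at high MYC (adjusted p = 2.08e-10) and -0.52 at medium MYC (adjusted p = 5.06e-12).

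SLC25A29 was lower with IMP1088 at both settings without overlap of the libraries, by log2 -0.33 ± 0.07 at high MYC (adjusted p = 0.00131) and -0.35 ± 0.07 at medium MYC (adjusted p = 0.000719). SLC25A45 fell by log2 -0.33 and -0.42 (adjusted p = 0.00278 and 0.000255). SLC25A11 (-0.25 and -0.22) passed by less, and its calls were lost under several other settings, the GC correction among them. RNF167, whose exons overlap SLC25A11 on the opposite strand, changed by -0.17 at high MYC (adjusted p = 0.0182) and -0.30 at medium MYC (adjusted p = 0.000125). SLC25A37 changed by -0.20 at high MYC (adjusted p = 0.00259) and by -0.14 at medium MYC (adjusted p = 0.0283), where edgeR, DESeq2 and 7 other settings lost the call.

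SLC25A6 rose with IMP1088 at both settings, by 1.1-fold at high MYC (log2 0.13 ± 0.03, adjusted p = 0.00315) and 1.15-fold at medium MYC (adjusted p = 4.51e-05). SLC25A5 did not pass at either (-0.04 and -0.02), and SLC25A4 was lower at medium MYC (-0.25, adjusted p = 0.00706). The share of SLC25A6 among ADP/ATP carrier counts was 66.0% in DMSO and 68.5% with IMP1088 at high MYC. At medium MYC it was 61.2% and 65.1%. The change in share was not tested.

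At high MYC, SLC25A44 and SLC25A32 rose and SLC25A42 and SLC25A40 fell. SLC25A44 was 1.2-fold higher (adjusted p = 0.000624), with every IMP1088 library above every DMSO library. SLC25A40 was 1.26-fold lower (adjusted p = 0.000443), again without overlap. SLC25A32 was 1.14-fold higher (adjusted p = 0.0439), a call kept in 17 of 29 other settings. Its lowest DMSO library, replicate 1 at 801, decided much of that value: without it the log2 change was 0.12 in place of 0.18 and the adjusted p was 0.184. At medium MYC the log2 changes of SLC25A44, SLC25A40 and SLC25A32 were 0.09, -0.07 and 0.03, and none passed.

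Among carriers that passed at medium MYC only, SLC25A4 changed by -0.25 (adjusted p = 0.00706) and SLC25A38 by -0.21 (adjusted p = 0.00837), beside 0.04 and 0.01 at high MYC. Their differences in response did not pass (adjusted p = 0.0597 and 0.107), though both passed with the GC correction. SLC25A4 also passed with that correction and the replicate block, where SLC25A38 did not. The difference of SLC25A4 further passed with the filter at a mean of 100, without the mean trend and with quantile normalisation. It passed as well without high-MYC IMP1088 replicate 3 and without medium-MYC DMSO replicate 2.

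The difference between the 2 responses, high minus medium MYC, asks whether the effect of IMP1088 depends on the MYC setting. It passed for 4 of 41 carriers, beside 8.63% of all genes: 3 were positive (3.31% of all genes) and 1 was negative (5.33% of all genes). No difference of 2-fold or more was called among the carriers, beside 0.596% of all genes. The 4 were SLC25A30, SLC25A23, SLC25A3 and SLC25A42.

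SLC25A30 (ENSG00000174032, chr13:45393316-45418455), a relative of the uncoupling proteins, fell at medium MYC. It read 447, 434, 366 and 452 in DMSO and 297, 283, 287 and 288 with IMP1088 at medium MYC. At high MYC it read 393, 456, 460.2 and 462 and 416, 377, 387 and 398. The groups separated at medium MYC (1.46-fold lower, log2 -0.55 ± 0.07, adjusted p = 1.51e-06) and overlapped at high MYC (-0.16 ± 0.07, adjusted p = 0.0727), where DMSO replicate 1 lay below the other 3 DMSO libraries. The difference was 0.39 ± 0.09 (adjusted p = 0.00963). At high MYC without that library the change was -0.22 (adjusted p = 0.0166), and the difference passed in all 28 other settings. TPT1-AS1, which overlaps its exons on the opposite strand, did not pass at medium MYC (log2 0.11, adjusted p = 0.54).

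SLC25A23 (ENSG00000125648, chr19:6436079-6465203), the most abundant ATP-magnesium/phosphate carrier per kilobase here, fell at both settings and by more at medium MYC. At high MYC it read 1981, 1878, 1766 and 1868 in DMSO and 1485, 1482, 1472 and 1541 with IMP1088. At medium MYC it read 1736, 1719, 1906 and 1764 and 1178, 1253, 1228 and 1241. No IMP1088 library overlapped the DMSO libraries of its setting, with falls of 1.25-fold (adjusted p = 1.46e-06) and 1.45-fold (adjusted p = 6.27e-10), and the difference was 0.21 ± 0.05 (adjusted p = 0.0134). The other carriers of its kind, SLC25A24, SLC25A25 and SLC25A41, did not pass in the IMP1088 comparisons. At medium MYC the libraries of SLC25A25 did not overlap (log2 -0.16, adjusted p = 0.0907), and it passed with the compared groups only (adjusted p = 0.0147), with edgeR and without high-MYC DMSO replicate 1. The libraries of SLC25A24 did not overlap there either (log2 -0.36, adjusted p = 0.192), and it passed with the compared groups only.

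SLC25A3, the phosphate carrier, rose slightly at high MYC. It read 3886, 4072, 4227 and 4171 in DMSO and 4568, 4380.2, 4543 and 4509 with IMP1088 there. At medium MYC it read 3732, 3658, 3611 and 3699 and 3630.3, 3564, 3749 and 3628. The groups separated at high MYC (1.1-fold higher, adjusted p = 0.000841) and overlapped at medium MYC (-0.01 ± 0.03, adjusted p = 0.788). Its difference of 0.15 ± 0.04 (adjusted p = 0.0186) was lost with equal library totals, without the mean trend and with quantile normalisation (adjusted p = 0.0562, 0.0657 and 0.0884).

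SLC25A42 (ENSG00000181035, chr19:19063999-19112888), which imports coenzyme A, fell at high MYC. It read 209, 188, 189.8 and 216 in DMSO and 173, 138, 131 and 157 with IMP1088 there. At medium MYC it read 225, 192, 210.0 and 206 and 220.2, 207, 211 and 204. The groups separated at high MYC (1.34-fold lower, adjusted p = 0.000608) and overlapped at medium MYC (log2 0.02 ± 0.08). The difference was -0.44 ± 0.12 (adjusted p = 0.0207), and without medium-MYC DMSO replicate 2 it was -0.40 with an adjusted p of 0.0516.

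**Figure D5:**
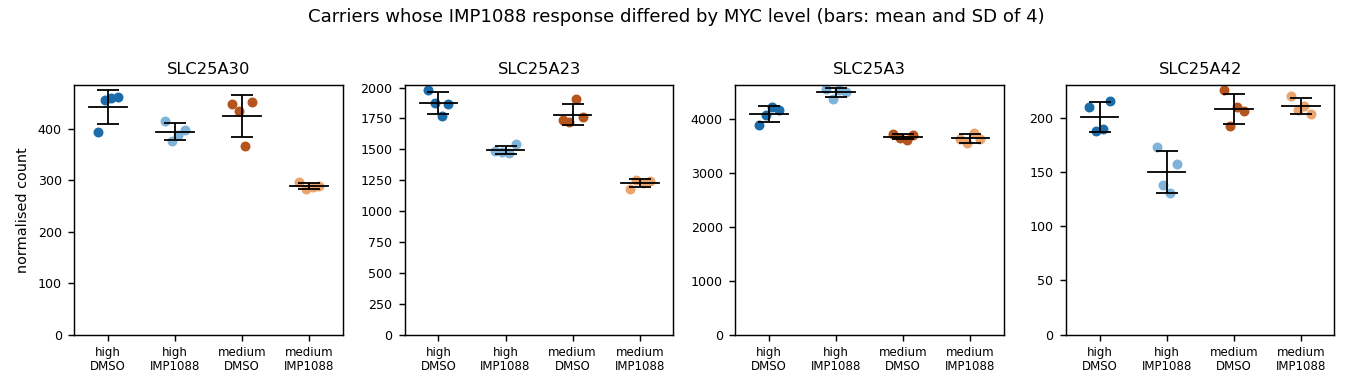
Normalised counts in each of the 16 libraries for the 4 carriers whose IMP1088 response differed between MYC settings; each point is a library, and the bars give the mean and SD of 4. SLC25A30 drops mainly at medium MYC, SLC25A23 drops at both, SLC25A3 rises at high MYC and SLC25A42 drops at high MYC.

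Carrier proteins reach the inner membrane through TOMM70, the small TIM chaperones and the TIM22 complex. Of 7 genes of this import route, 4 were lower and 1 was higher at medium MYC in DMSO, and 5 were lower and 1 was higher with IMP1088 in both groups. Of all genes 37.3% were lower in DMSO and 37.8% with IMP1088. The receptor TOMM70 went from 1607 ± 71.5 (SD, n = 4) to 875 ± 19.8 in DMSO (log2 -0.88, adjusted p = 1.66e-15), and the chaperones TIMM9 and TIMM10 changed by -0.74 and -0.70. With IMP1088 against DMSO, TOMM70 rose at both settings, by 0.12 at high MYC (adjusted p = 0.0152) and 0.27 at medium MYC (adjusted p = 7.85e-06). All 3 outer membrane pores, VDAC1, VDAC2 and VDAC3, were lower at medium MYC in both comparisons, by -0.48, -0.57 and -0.22 in DMSO.

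Inner membrane transporters outside the family went both ways, with 5 of 13 higher and 5 lower at medium MYC in DMSO, beside 38.9% and 37.3% of all genes. SFXN4, a sideroflexin needed for iron-sulphur clusters, went from 463 ± 24.8 (SD, n = 4) to 96.2 ± 3.9 in DMSO (log2 -2.26, adjusted p = 1.18e-17). LETM1, a cation exchanger, changed by -0.90, and the pyruvate carrier subunit MPC1 was higher at medium than at high MYC by 1.65 with IMP1088 in both groups (adjusted p = 2.63e-11). Of 4 tested family members with other symbols, UCP2 and MTCH1 were higher and MTCH2 was lower in DMSO (0.20, 0.40 and -0.61).

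Of 28 enzymes that make or use the carried metabolites, 18 were lower and 8 higher at medium MYC in DMSO, beside 37.3% and 38.9% of all genes, and 17 were lower and 9 higher with IMP1088 in both groups, beside 37.8% and 39.7%. The group was not tested against other genes. GOT2 of the malate-aspartate shuttle and the proline synthesis enzymes PYCR1 and ALDH18A1 changed by -1.16, -2.64 and -1.28 in DMSO. With IMP1088 against DMSO, 8 of the 28 passed at high MYC (1 higher, 7 lower), beside 26.8% of all genes, and 15 passed at medium MYC (6 higher, 9 lower), beside 26.3%. The difference in response passed for 6 of the 28, all negative, beside 5.33% of all genes, including PYCR1 (-0.99) and the folate enzymes MTHFD2 (-0.45) and SHMT2 (-0.42). MTHFD2 went from 1384 ± 65.3 (SD, n = 4) to 1955 ± 27.6 with IMP1088 at medium MYC, and was at 2802 ± 106 and 2895 ± 37.7 at high MYC. SLC25A32, which supplies the folate these enzymes use, had a difference in response of 0.16 ± 0.09 that did not pass (adjusted p = 0.357).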

How the data were processed

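Gene-level values of 16 RNA-seq libraries of P493-6 cells were used, 4 in each of 4 groups taken from the sample titles. Per the labels' protocols, RNA was extracted with a miRNeasy kit and libraries were made with a Nugen cDNA kit. The submitters' processing notes name STAR 2.5.2a, RSEM 1.2.31, DESeq2 1.16.1 and genome build GRCh38, without their settings. The signal values deposited by the authors are gene counts divided by a size factor per library: 100% of the values gave whole reads within a relative tolerance of 1e-06, and the factors equal the median-of-ratios factors of those reads. These normalised counts are not raw counts, so the main test was limma 3.58.1 (R 4.3.3) on log2(value + 1), with moderated variances that follow the mean level, over all genes with a mean of at least 10, in 1 fit of the 4 groups. P-values are two-sided and adjusted by Benjamini-Hochberg over all 13765 genes tested, and a gene was called at an adjusted p under 0.05.

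Symbols were matched to the table's identifiers for 56948 of 58051, and gene positions, biotypes and exon lengths come from GENCODE release 29 (GRCh38). A further 50 rows with SLC25A symbols are pseudogenes or antisense genes and were left out. Of the 48 carriers, 21 have exons that overlap those of another gene. Every library value is given for the 3 largest rises and falls per comparison among called carriers with a mean of at least 50, and for carriers whose difference in response passed. The carriers, the role and pathway lists and these rules were chosen with earlier results of these data known.

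The alternatives were pseudocounts of 0.1 and 10, no filter and a mean of 100, equal library totals, quantile normalisation, variances without the trend on the mean, the compared groups only, a replicate block, each library left out in turn, and, on the recovered reads, edgeR 4.0.16 (quasi-likelihood, TMM) and DESeq2 1.42.0. A correction for GC content, alone and with the replicate block, was added after seeing the data. No 2 libraries of a group matched within sampling noise (chi-square per degree of freedom 1.73 to 11.1), and their correlations were 0.985 to 0.991. No protein sequences were used here. The values of 1 carrier and 1 marker gene are not reported here, and that carrier stays in the counts over the family.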

Additional observations from a re-analysis of the deposited data

Results flagged for a closer look

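In 4 carriers the change with IMP1088 differed between the MYC settings by the test of the difference itself (limma, high minus medium MYC, log2): SLC25A3 at 0.15, SLC25A23 at 0.21, SLC25A30 at 0.39 and SLC25A42 at -0.44.

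Among the 160 sets of 4 libraries (40 carriers in 4 groups), 11 held 1 library far from the other 3 by Dixon's criterion, which chance alone gives in about 1 of 20 sets. At high MYC in DMSO, SLC25A11 was highest in replicate 4 at 414 (the others lay at 377 to 381), SLC25A26 was lowest in replicate 3 at 164 (176 to 178), SLC25A30 was lowest in replicate 1 at 393 (456 to 462) and SLC25A43 was lowest in replicate 4 at 125 (140.4 to 143). At high MYC with IMP1088, SLC25A14 was lowest in replicate 2 at 34.4 (48.4 to 49.9), SLC25A34 was lowest in replicate 4 at 3.12 (6.11 to 6.66) and SLC25A51 was lowest in replicate 1 at 343 (359.7 to 362). At medium MYC in DMSO, SLC25A20 was lowest in replicate 2 at 115 (125 to 127) and SLC25A46 was lowest in replicate 3 at 859 (1029.9 to 1035). At medium MYC with IMP1088, SLC25A20 was highest in replicate 2 at 123 (100.2 to 104) and SLC25A28 was highest in replicate 4 at 180.5 (162 to 165).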

How the results depend on the processing

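No called carrier changed sign in any of the 29 other settings. Calls held under every setting for 10 of 12 carriers for IMP1088 at high MYC, 8 of 10 at medium MYC, 2 of 4 for the difference in response (SLC25A23 and SLC25A30), 27 of 29 for medium against high MYC in DMSO and 29 of 32 with IMP1088. Carriers higher with IMP1088 at medium MYC numbered 2 in place of 1 with the GC correction, the compared groups only, edgeR, the filter at a mean of 100 and quantile normalisation, and 1 to 2 with single libraries left out (2 without high-MYC DMSO replicate 1 or 3). Over all genes 1606 were higher there, and 1811, 1612, 1857, 1469 (of 9604 tested) and 1963 in those settings. Without high-MYC DMSO replicate 1 or 3, which are not in that comparison, 1657 and 1653 of all genes were higher. Positive differences in response numbered 6 in place of 3 with the GC correction and 5 with the GC correction and replicate block. They also became more frequent over all genes, at 683 and 648 in place of 455. Negative differences numbered 0 to 1 with single libraries left out (0 without medium-MYC DMSO replicate 2, where all genes had 624 in place of 733). With the filter at a mean of 100, which left 33 carriers, 6 were higher at medium MYC in DMSO in place of 11, and 7 in place of 13 with IMP1088. Of the 9604 genes under that filter, 3848 were higher in DMSO and 3935 with IMP1088. Among those 33 carriers no call was lost or gained in either comparison, so the smaller counts are due to carriers that the filter removed. With single libraries left out, carriers lower with IMP1088 at high MYC numbered 7 to 12 in place of 8 (12 without medium-MYC DMSO replicate 3). That library is not in the high-MYC comparison, so the log2 changes stayed the same and only the shared variance estimate moved. Without it 2381 of all genes were lower in place of 2247.

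Replicate numbers are not stated to pair the libraries. Same-numbered libraries had residual correlations of -0.15 to 0.24. Differently numbered libraries were not compared in this way, so the values do not decide whether the numbers pair them. With the replicate block, carriers called higher and lower were 3 and 9 for IMP1088 at high MYC, 1 and 8 at medium MYC, 3 and 1 for the difference, 11 and 18 for MYC in DMSO, and 13 and 20 with IMP1088. Over all genes the counts were 1345 and 2123, 1529 and 1896, 408 and 644, 5321 and 5098, and 5429 and 5172 in the same order. Carriers at few reads, such as SLC25A34, SLC25A2 and SLC25A41, had the largest standard errors (0.28 to 0.34 on the log2 scale), so smaller changes were less detectable there than in abundant carriers.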
